A study of Homo sapiens with 12 samples.

Results

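The genes described here encode, with few exceptions, glycosyltransferases that build sugar chains on proteins and lipids, for the most part in the Golgi. They were picked out by symbol, as the genes of the GALNT, B3GNT, B3GALT, B4GALT, B4GALNT, ST3GAL, ST6GAL, ST8SIA, FUT, MGAT, GCNT and C1GALT1 families together with A4GALT. The rule reads no measured value, although it was written with earlier results of these data known. This gave 66 of the 12756 genes tested, after 1 antisense transcript was left out. Polyadenylated RNA had been sequenced from 12 libraries of HCT116, an established human colorectal carcinoma line, 48 hours after seeding. Each of 4 groups had 3 labelled replicates. The groups were a double knockout of ANKRD52 and CSNK1A1 (ANKRD52;CSNK1A1), a knockout of ANKRD52, a knockout of AGO2, and the parental line. AGO2 is an Argonaute, the protein that holds a microRNA on the messages it silences. ANKRD52 belongs to the PP6 phosphatase as a regulatory subunit, and CSNK1A1 encodes the alpha form of casein kinase 1. All 3 knockouts were set against the same 3 parental libraries, so the comparisons are not independent of each other. The labels give no way of making the edits and do not say whether the replicates were clones or separate cultures, so p-values reflect spread among these libraries alone, and that spread may be technical.

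Glycosyltransferases move a sugar from a nucleotide donor onto a growing chain. Polypeptide GalNAc transferases start the O-linked chains of mucins, core and branching enzymes shape these chains and the N-linked ones, galactosyl- and GlcNAc-transferases extend them, and sialyl- and fucosyltransferases cap them. In the colon these chains carry blood group and Lewis antigens, and many of the capping and branching genes are expressed in a cell type specific way.

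The values are the authors' own: for each gene a log2 fold change over the parental line, a likelihood ratio and an adjusted p-value from edgeR, a tool for count data. A gene is said to have risen or fallen where that adjusted p, taken over all 12756 genes, was under 0.05. A log2 fold change above 0 means a higher level in the knockout. Approximate standard errors (SE) were rebuilt from the fold change and the likelihood ratio. Levels are given as implied CPM (reads of a gene scaled to a common library size), worked out for each group from the mean CPM that the authors deposited and the 3 fold changes, taking the groups to weigh equally. They carry no per-library values, so whether single libraries of different groups overlap is not shown, and library depth is unknown. The level of a group with 3 reads in all was put at 0.0345 CPM, a rough estimate from 2 genes. Every glycosyltransferase level given here lies above it. The tables come from bulk RNA, in which fewer cells of a type and less RNA per cell cannot be told apart.

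Of the targeted genes, AGO2 had a log2 fold change of -1.07 in its own knockout (adjusted p = 0.0477) and CSNK1A1 one of -2.42 in the double knockout (adjusted p = 1.71e-10), by the authors' deposited tables. ANKRD52 fell by 0.65 in the double knockout (adjusted p = 2.32e-05) but stood at 0.03 in the ANKRD52 knockout (adjusted p = 0.915) in the authors' deposited tables, so its RNA does not check that label. The tables list 8 of 10 markers of colorectal epithelium, whose summed implied level was 8789 CPM in the double knockout, 3227 CPM in the ANKRD52 knockout, 3503 CPM in the AGO2 knockout and 3421 CPM in the parental line. Of these 8 markers, 6 rose in the double knockout, 3 fell in the ANKRD52 knockout (CDH1, CLDN7 and EPCAM) and 0 were called by edgeR in the AGO2 knockout, where 1 had an unadjusted p under 0.05. Leukocyte markers (2 of 7 listed, CD68 and LYZ) summed to 9.70, 2.65, 6.57 and 4.26 CPM in the double, ANKRD52 and AGO2 knockouts and the parental line, but they moved apart in the double knockout. There LYZ rose to 8.63 CPM, against 0.0788 CPM in the parental line, and CD68 fell to 1.07 CPM, against 4.18 CPM in the parental line. Fibroblast and endothelial markers (2 of 8 listed) summed to 16.6, 13.1, 12.9 and 12.5 CPM in the same groups, and of these VWF rose in the double knockout, to 2.53 CPM against 0.530 CPM in the parental line, while COL1A1 was not called.

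In the double knockout 36 of the 66 glycosyltransferase genes changed, 26 higher and 10 lower. GCNT2, which makes the I branch of poly-LacNAc chains, A4GALT, which makes the globoside Gb3, and MGAT3, which adds the bisecting GlcNAc of N-glycans, rose most, each by more than 3.5 on the log2 scale. MGAT5 and B4GALT5, a branching and a galactosyltransferase gene at high levels, rose 3.11-fold and 2.46-fold. The largest fall was that of GCNT3, a mucin-type branching enzyme. The share of all genes called in this comparison was 43.0%, with 22.9% higher and 20.1% lower. The median log2 fold change was 0.24 over the 66 members and 0.01 over all genes, and the mean was 0.42 over the members and 0.13 over all genes.

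In the ANKRD52 knockout 18 of 66 changed, 8 higher and 10 lower, where 13.7% of all genes were called, 7.62% higher and 6.04% lower. GCNT2 and ST8SIA6, an alpha-2,8-sialyltransferase, rose most, and GALNT3, a starter of O-glycans, and FUT3, the Lewis fucosyltransferase, fell most. The median over the members was 0.01. These calls rest on the authors' test: when the likelihood ratios were read on an F distribution (1 and 8 degrees of freedom), which is stricter, 0 of the 18 remained, while 24 members had an unadjusted p under 0.05. By edgeR 26 of 66 members and 3366 of all 12756 genes had an unadjusted p under 0.05. How many of all genes kept their call under the F distribution was not counted, so the loss is not shown to be particular to the members.

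In the AGO2 knockout 2 of 66 fell and 0 rose, where 6.10% of all genes were called, 3.38% higher and 2.72% lower. Both genes that fell, B4GALNT3 and B4GALNT4, make the LacdiNAc unit of N-glycans. At an unadjusted p under 0.05 the authors' table held 13 of 66 members and 2735 of all 12756 genes. The F distribution left 7 of the 13 members at that level and 0 after adjustment, and its calls over all genes were not counted. The median over the members was -0.01.

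**Figure D1:**
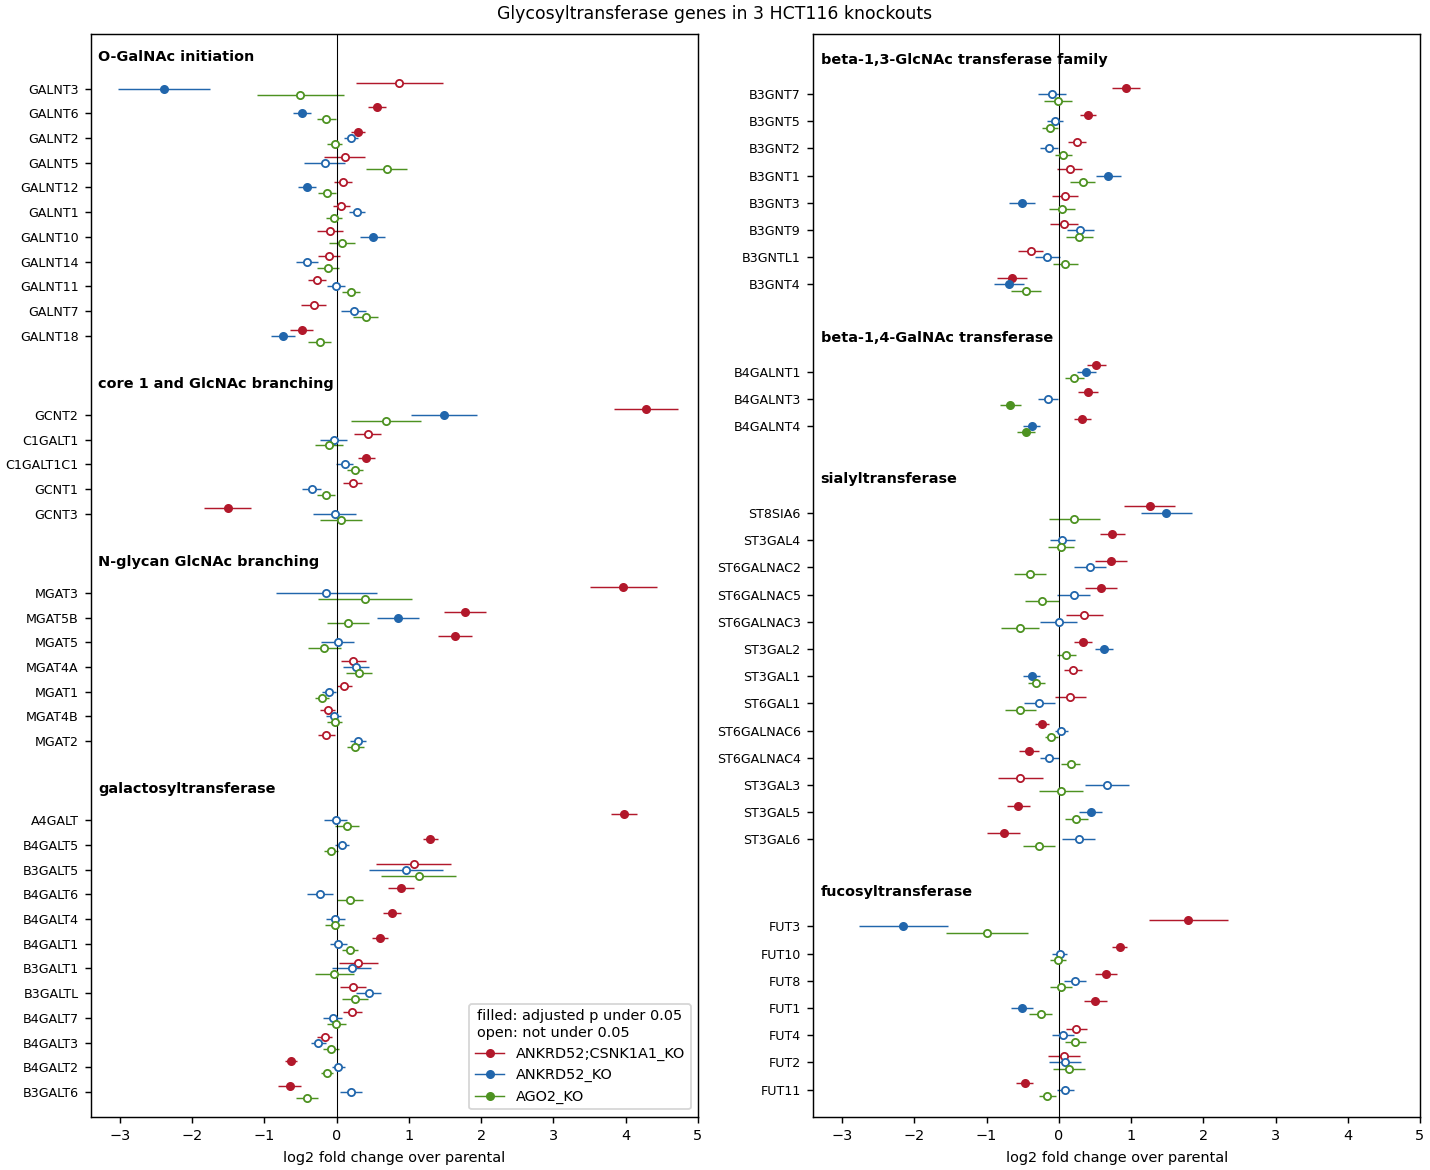
Log2 fold change over the parental line (x axis) of the 66 glycosyltransferase genes by enzyme family in the 3 knockouts, from the authors' deposited tables; bars are 1 approximate SE and filled points have an adjusted p under 0.05. GCNT2, A4GALT and MGAT3 stand apart to the right in the double knockout, and GALNT3 and FUT3 to the left in the ANKRD52 knockout.

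Set directly against the ANKRD52 knockout, the double knockout differed in 39 of 66 members, 27 higher and 12 lower. This test took the difference of the authors' log2 fold changes, in which the shared parental level drops out, with an approximate SE and adjustment over 12753 genes. Of these genes 34.3% differed, 18.5% higher and 15.7% lower. The median difference over the members was 0.27. The largest differences were those of MGAT3 (4.11), A4GALT (3.998), FUT3 (3.94), GALNT3 (3.26) and GCNT2 (2.80), all higher in the double knockout. The lowest were GCNT3 (-1.48), ST3GAL3 (-1.20), ST3GAL6 (-1.04) and ST3GAL5 (-1.002).

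**Figure D2:**
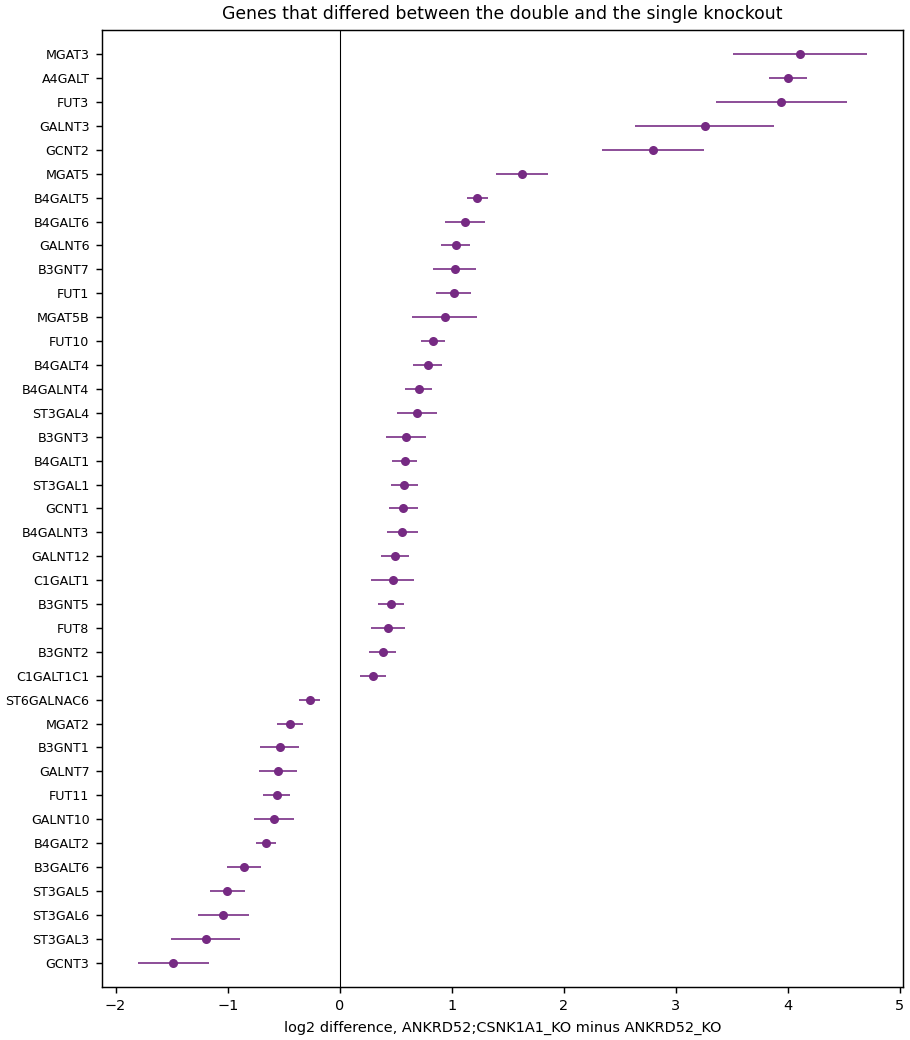
Log2 difference between the double and the ANKRD52 knockout (x axis) for the 39 glycosyltransferase genes that differed at an adjusted p under 0.05, with bars of 1 approximate SE. The 27 genes higher in the double knockout reach 4.11 and the 12 lower ones reach -1.48.

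Counted over all 3 knockouts, 42 of 66 members were called at least once, against 49.9% of all genes. B4GALNT4 alone was called in all 3, higher in the double knockout and lower in the ANKRD52 and AGO2 knockouts, and no member was called in all 3 in the same direction. Of the 42, 23 were called in the double knockout alone. That comparison also called most genes over all, 43.0% against 13.7% in the ANKRD52 and 6.10% in the AGO2 knockout. B4GALNT1, GCNT2, MGAT5B, ST3GAL2 and ST8SIA6 rose in both the double and the ANKRD52 knockout, and B3GNT4 and GALNT18 fell in both. The shares of all genes called in all 3 knockouts, in the double knockout alone, or in the double and ANKRD52 knockouts in the same direction were not counted. FUT1, FUT3, GALNT6 and B4GALNT4 rose in the double knockout and fell in the ANKRD52 knockout, a pattern held by 4 of 66 members and 0.439% of all genes. ST3GAL5 alone did the reverse, as did 0.510% of all genes.

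The 11 GALNT genes encode the polypeptide GalNAc transferases that place the first sugar of mucin-type O-glycans. Their median log2 fold change was 0.07 in the double knockout, -0.17 in the ANKRD52 knockout and -0.04 in the AGO2 knockout. GALNT3 had an implied level of 41.2 CPM in the double knockout, 4.31 CPM in the ANKRD52 knockout, 15.9 CPM in the AGO2 knockout and 22.6 CPM in the parental line. It was thus lowest without ANKRD52 alone and highest without both genes. In the authors' deposited table GALNT3 fell by 2.39 in the ANKRD52 knockout (SE 0.63, adjusted p = 0.00347). Its change in the double knockout, 0.87 in the authors' deposited table, was not called (SE 0.60, adjusted p = 0.245), but the double knockout was higher than the ANKRD52 knockout (3.26, SE 0.62, approximate adjusted p = 1.72e-06). Its SE was wider than that of 99.5% of genes of like expression.

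GALNT6, a close relative of GALNT3, moved the same way at a smaller size. Its levels were 39.4 CPM in the double knockout, 19.2 CPM in the ANKRD52 knockout, 24.3 CPM in the AGO2 knockout and 26.8 CPM in the parental line. It rose by 0.55 in the double knockout (adjusted p = 8.63e-05) and fell by 0.48 in the ANKRD52 knockout (adjusted p = 0.0038) in the authors' deposited tables. GALNT18 fell in both, by 0.49 in the double knockout (adjusted p = 0.00739) and by 0.74 in the ANKRD52 knockout (adjusted p = 0.000194), in the authors' deposited tables. GALNT12, an isoenzyme of the colon, fell by 0.41 in the ANKRD52 knockout (adjusted p = 0.014) and stood at 0.09 in the double knockout (adjusted p = 0.599) in the authors' deposited tables. GALNT10, which prefers peptides that already carry GalNAc, rose by 0.50 in the ANKRD52 knockout (adjusted p = 0.0402), per the authors' deposited table. GALNT2, a broadly expressed isoenzyme, rose by 0.30 in the double knockout (adjusted p = 0.00752) in the authors' deposited table. GALNT1, GALNT5, GALNT7, GALNT11 and GALNT14 were called in no knockout, although GALNT7 was lower in the double than in the ANKRD52 knockout (-0.55, approximate adjusted p = 0.00605).

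Beside the falls of the ANKRD52 knockout, 3 of 8 epithelial markers fell in it, and all 8 were higher in the double than in the ANKRD52 knockout. CDH1 had 312 CPM in the double knockout, 45.4 CPM in the ANKRD52 knockout, 78.3 CPM in the AGO2 knockout and 114 CPM in the parental line. Their part in the values of GALNT3, GALNT6, FUT1 and FUT3 was not tested.

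Promoters of the members were read for CAGGTG, the E-box sequence that ZEB and SNAIL factors bind, on both strands (as CAGGTG or CACCTG), in the 300 bases from 250 before to 50 after the start in RefSeq (GRCh38.p14). The sequence is also an instance of the general E-box CANNTG. Of the 10 members that fell in the ANKRD52 knockout 6 had a promoter in the table, and 5 of these held it (83.3%), namely B4GALNT4, FUT1, FUT3, GALNT3 and GALNT12. Among all genes that fell in this knockout the share was 26.1% (155 of 594). The sequence was found in 2 of 4 members that rose, against 16.4% of all genes that rose. Of the members not called 6 of 39 held it, against 18.5% of all genes not called. Whatever the call, it stood in 13 of 49 members (26.5%) and in 18.8% of 10072 genes. By the calls of the double knockout it stood in 7 of 17 members that rose (41.2%), 1 of 8 that fell and 5 of 24 not called (20.8%). The shares of all genes there were 19.1% of those that rose, 18.2% of those that fell and 18.9% of those not called. AACCGG (or CCGGTT), part of the Grainyhead motif, stood in 3 of 49 members (6.12%) and 10.7% of genes, and TCAAAG (or CTTTGA), the TCF core, in 2 of 49 (4.08%) and 8.20% of genes. All 5 genes with a match, and B3GNT3 without one, fell in the ANKRD52 knockout and were higher in the double knockout than in it. The promoters shown are those of the 3 with more than 1 match, while B4GALNT4 and GALNT12 held 1 each. They are written 5′ to 3′ on the gene's strand (minus for all 3), with CAGGTG and CACCTG in capitals. The windows are chr2:165794198-165794497 for GALNT3, chr19:5851400-5851699 for FUT3 and chr19:48755309-48755608 for FUT1.
GALNT3: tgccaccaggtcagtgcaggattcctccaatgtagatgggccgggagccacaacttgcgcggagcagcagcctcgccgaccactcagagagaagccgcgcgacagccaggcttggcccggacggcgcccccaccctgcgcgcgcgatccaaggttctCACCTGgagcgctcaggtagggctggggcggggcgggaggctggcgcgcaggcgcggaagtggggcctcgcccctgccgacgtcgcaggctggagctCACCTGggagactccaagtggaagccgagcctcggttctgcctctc
FUT3: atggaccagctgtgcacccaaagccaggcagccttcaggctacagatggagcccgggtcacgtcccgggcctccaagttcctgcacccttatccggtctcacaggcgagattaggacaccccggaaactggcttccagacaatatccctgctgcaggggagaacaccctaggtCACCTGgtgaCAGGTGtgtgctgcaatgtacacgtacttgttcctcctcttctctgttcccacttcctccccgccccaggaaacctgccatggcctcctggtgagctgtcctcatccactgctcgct
FUT1: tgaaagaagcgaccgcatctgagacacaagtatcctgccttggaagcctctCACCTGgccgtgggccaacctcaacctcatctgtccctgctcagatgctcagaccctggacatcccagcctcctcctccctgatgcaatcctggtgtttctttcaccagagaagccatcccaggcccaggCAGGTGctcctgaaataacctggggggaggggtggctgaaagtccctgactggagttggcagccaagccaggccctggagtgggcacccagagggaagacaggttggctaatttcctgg
Counted from the start site as 0, the matches begin at -93 and 4 in GALNT3, at -77 and -67 in FUT3, and at -199 and -69 in FUT1. A match is a description of these letters, not a bound site or a cause. The authors' notes name another genome build, hg19, so the positions are those of the RefSeq table only.

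The enzymes that shape the O-glycan core and add its branches were C1GALT1, its chaperone C1GALT1C1, and GCNT1, GCNT2 and GCNT3. GCNT2 had 5.55 CPM in the double knockout, 0.80 CPM in the ANKRD52 knockout, 0.457 CPM in the AGO2 knockout and 0.285 CPM in the parental line. It was low in all groups but the double knockout, where it had the largest rise of any member. In the authors' deposited tables its log2 fold change was 4.28 in the double knockout (SE 0.45, adjusted p = 3.72e-20) and 1.49 in the ANKRD52 knockout (SE 0.46, adjusted p = 0.0154). GCNT3, which builds core 2 and core 4 branches of mucins, had 0.670 CPM in the double knockout, 1.87 CPM in the ANKRD52 knockout, 1.99 CPM in the AGO2 knockout and 1.91 CPM in the parental line. It fell by 1.51 in the double knockout (SE 0.33, adjusted p = 3.08e-05) in the authors' deposited table. Both genes lay under a mean of 1 on the log2 CPM scale, with FUT3, MGAT3 and B3GALT5, and drop out under a filter on low levels.

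C1GALT1C1, the chaperone that the core 1 enzyme needs, rose by 0.41 in the double knockout (adjusted p = 0.00199) in the authors' deposited table. C1GALT1 itself stood at 0.43 there (adjusted p = 0.0529) and was not called in the authors' deposited table, but was higher in the double than in the ANKRD52 knockout (0.47, approximate adjusted p = 0.0386). GCNT1, the common core 2 enzyme, was likewise called only in that difference (0.57, approximate adjusted p = 7.91e-05).

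Among the 7 N-glycan branching genes, 3 rose in the double knockout, 1 of them also in the ANKRD52 knockout, and none fell. MGAT3 had 1.69 CPM in the double knockout, 0.0980 CPM in the ANKRD52 knockout, 0.142 CPM in the AGO2 knockout and 0.108 CPM in the parental line. Its 3.97 in the double knockout (SE 0.46, adjusted p = 4.94e-16), from the authors' deposited table, is thus set against a very low parental level. MGAT5, which opens the branch on which poly-LacNAc is built, had 332 CPM in the double knockout, 108 CPM in the ANKRD52 knockout, 94.8 CPM in the AGO2 knockout and 107 CPM in the parental line. The double knockout stood apart from the other 3 groups, which lay close together. MGAT5 rose by 1.64 in the double knockout (SE 0.24, adjusted p = 7.44e-11) in the authors' deposited table. MGAT5B, its relative that acts on O-mannose chains, rose by 1.78 in the double knockout (adjusted p = 1.65e-08) and by 0.84 in the ANKRD52 knockout (adjusted p = 0.0311) in the authors' deposited tables. Ranked by SE among genes expressed at a like level, MGAT5 stood at the 96.2, MGAT3 at the 93.1 and MGAT5B at the 91.5 percentile.

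MGAT1 and MGAT2, which open the hybrid and complex pathway, and MGAT4A and MGAT4B, which add a further branch, were called in no knockout. In the double knockout their log2 fold changes in the authors' deposited table were 0.11 for MGAT1, -0.15 for MGAT2, 0.23 for MGAT4A and -0.12 for MGAT4B. These genes thus had small fold changes beside those of MGAT3, MGAT5 and MGAT5B. MGAT2 was lower in the double than in the ANKRD52 knockout (-0.44, approximate adjusted p = 0.00102).

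The 12 genes named for galactose transfer held 5 that rose and 2 that fell in the double knockout, and 0 called by edgeR in the ANKRD52 and AGO2 knockouts, with 2 at an unadjusted p under 0.05 in each. B3GALTL is among them by name only and is also listed with the enzymes of O-fucose chains. A4GALT, the Gb3 synthase, had 204 CPM in the double knockout, 12.8 CPM in the ANKRD52 knockout, 14.3 CPM in the AGO2 knockout and 12.9 CPM in the parental line. It rose 15.8-fold in the double knockout (log2 fold change 3.98, SE 0.18, adjusted p = 6.81e-109 in the authors' deposited table), with a narrower error than GCNT2 or MGAT3. It stood at -0.02 in the ANKRD52 knockout (adjusted p = 0.97) and 0.15 in the AGO2 knockout (adjusted p = 0.658), per the authors' deposited tables. B4GALT5, a lactosylceramide synthase and so upstream of Gb3, had 1134 CPM in the double knockout, 484 CPM in the ANKRD52 knockout, 437 CPM in the AGO2 knockout and 461 CPM in the parental line. Its log2 fold change in the double knockout was 1.30 (SE 0.10, adjusted p = 2.28e-38) in the authors' deposited table. B4GALT6, the other lactosylceramide synthase, rose by 0.89 (adjusted p = 8.3e-06) in the authors' deposited table for the double knockout.

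B4GALT1, the main enzyme of N-glycan galactosylation, rose by 0.60 (adjusted p = 1.94e-06) and B4GALT4 by 0.76 (adjusted p = 2.65e-08) in the double knockout, per the authors' deposited table. In the same comparison B4GALT2 fell by 0.63 (adjusted p = 8.05e-12) and B3GALT6, which adds a galactose of the proteoglycan linker, fell by 0.65 (adjusted p = 0.00015) in the authors' deposited table. The family therefore changed in both directions. B3GALT1, B3GALT5, B3GALTL, B4GALT3 and B4GALT7, the last of which acts one step before B3GALT6, were called nowhere. B3GALT5, at most 1.01 CPM in any group, had the largest uncalled fold changes of these: 1.06 in the double knockout (adjusted p = 0.0827), 0.96 in the ANKRD52 knockout (adjusted p = 0.217) and 1.13 in the AGO2 knockout (adjusted p = 0.169) in the authors' deposited tables. Per kilobase of the longest protein-coding transcript (GENCODE 29), B4GALT5 was the most abundant member in the parental line at 97.7 CPM per kb, ahead of GALNT1 at 39.5, B4GALT2 at 32.5 and MGAT4B at 32.2. The lowest was MGAT3 at 0.0214 CPM per kb, among 65 members with a length.

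**Figure D3:**
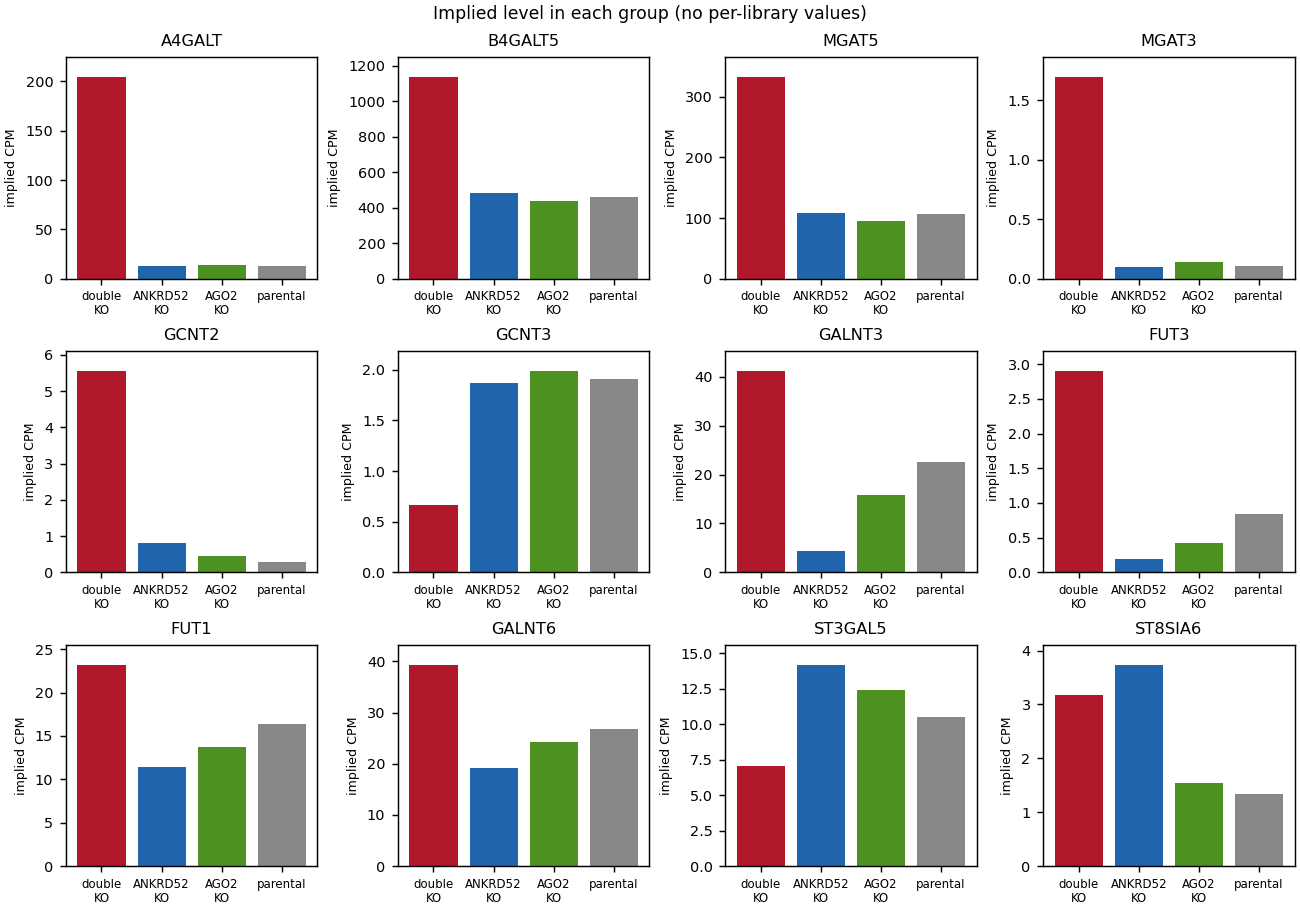
Implied level (y axis, CPM, linear from 0, with a scale of its own in each panel) of 12 glycosyltransferase genes in the double, ANKRD52 and AGO2 knockouts and the parental line, with no per-library values and no error bars. A4GALT stands at 204 CPM in the double knockout and under 15 CPM elsewhere, and GALNT3 and FUT3 are lowest in the ANKRD52 knockout.

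Of the 8 genes named for GlcNAc transfer in a beta-1,3 link, 2 rose and 1 fell in the double knockout, and 1 rose and 2 fell in the ANKRD52 knockout. B3GNT7, which extends keratan sulfate chains, had 19.8 CPM in the double knockout, 9.75 CPM in the ANKRD52 knockout, 10.3 CPM in the AGO2 knockout and 10.4 CPM in the parental line. Its rise was 0.93 in the double knockout (adjusted p = 8.34e-06) in the authors' deposited table. B3GNT5, which makes lactotriaosylceramide, rose by 0.40 (adjusted p = 0.00184) in the same comparison of the authors' deposited tables. B3GNT4 fell by 0.65 in the double knockout (adjusted p = 0.00588) and by 0.69 in the ANKRD52 knockout (adjusted p = 0.0121) in the authors' deposited tables. B3GNT3, which extends core 1, fell by 0.51 in the ANKRD52 knockout alone (adjusted p = 0.0362), per the authors' deposited table. The symbol B3GNT1, which rose by 0.69 in the ANKRD52 knockout (adjusted p = 0.00218) in the authors' deposited table, is a synonym of both B3GNT2 and B4GAT1 in RefSeq, so no role is given for it. B3GNT2, B3GNT9 and B3GNTL1 were called in no knockout. B3GNTL1 is listed in RefSeq as QTGAL and is counted here by its name only. B3GNT2, a poly-LacNAc enzyme, was higher in the double than in the ANKRD52 knockout (0.38, approximate adjusted p = 0.00792).

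All 3 beta-1,4-GalNAc transferase genes rose in the double knockout. B4GALNT4 had 24.4 CPM in the double knockout, 14.97 CPM in the ANKRD52 knockout, 14.2 CPM in the AGO2 knockout and 19.4 CPM in the parental line. In the authors' deposited tables it rose by 0.33 in the double knockout (adjusted p = 0.015), fell by 0.38 in the ANKRD52 knockout (adjusted p = 0.0172) and fell by 0.46 in the AGO2 knockout (adjusted p = 0.0075). B4GALNT3, which makes the same LacdiNAc unit, had 26.7, 18.1 and 12.7 CPM in the double, ANKRD52 and AGO2 knockouts and 20.2 CPM in the parental line. It rose by 0.41 in the double knockout (adjusted p = 0.0118) and fell by 0.67 in the AGO2 knockout (SE 0.14, adjusted p = 0.000505) in the authors' deposited tables. Both LacdiNAc genes were thus lowest in the AGO2 knockout, although for B4GALNT4 the AGO2 and ANKRD52 knockouts lay close together (SE 0.12 in each). B4GALNT1, which makes the gangliosides GM2 and GD2, rose by 0.52 in the double knockout (adjusted p = 0.000534) and by 0.38 in the ANKRD52 knockout (adjusted p = 0.0375) in the authors' deposited tables. Under the F distribution the rises of B4GALNT3 and B4GALNT4 in the double knockout were no longer called. The calls of these 3 genes in the ANKRD52 and AGO2 knockouts were lost under it as well.

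The 13 sialyltransferase genes divided, with 5 higher and 4 lower in the double knockout and 3 higher and 1 lower in the ANKRD52 knockout. ST8SIA6, which adds sialic acid to sialylated O-glycans, had 3.18 CPM in the double knockout, 3.74 CPM in the ANKRD52 knockout, 1.55 CPM in the AGO2 knockout and 1.33 CPM in the parental line. Its log2 fold change was 1.26 in the double knockout (SE 0.35, adjusted p = 0.00149) and 1.49 in the ANKRD52 knockout (SE 0.35, adjusted p = 0.000741), by the authors' deposited tables. Both knockouts without ANKRD52 were thus higher than the others, and the double knockout did not differ from the single by more than its error (-0.23, SE 0.35, approximate adjusted p = 0.651). ST3GAL2, which caps core 1 chains and gangliosides, rose by 0.33 in the double knockout (adjusted p = 0.0265) and by 0.63 in the ANKRD52 knockout (adjusted p = 8.27e-05) in the authors' deposited tables. ST3GAL1, which acts on the same core 1 chains, fell by 0.38 in the ANKRD52 knockout (adjusted p = 0.0211) and stood at 0.20 in the double knockout (adjusted p = 0.181) in the authors' deposited tables.

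ST3GAL5, the GM3 synthase at the entry of the ganglioside pathway, had 7.08 CPM in the double knockout, 14.2 CPM in the ANKRD52 knockout, 12.4 CPM in the AGO2 knockout and 10.5 CPM in the parental line. The gene fell by 0.56 in the double knockout (adjusted p = 0.00167) and rose by 0.44 in the ANKRD52 knockout (adjusted p = 0.0368) in the authors' deposited tables. It was the only member with that pair of signs. GM3 synthase and the Gb3 synthase A4GALT both use lactosylceramide, and in the double knockout the GM3 synthase gene fell while A4GALT rose. ST3GAL4, which caps LacNAc chains, rose by 0.74 in the double knockout (adjusted p = 0.000145), while ST3GAL6, with a like substrate, fell by 0.76 (adjusted p = 0.00311), both in the authors' deposited table. ST3GAL6 has an antisense transcript, ST3GAL6-AS1, which stood at -0.84 in the double knockout (adjusted p = 0.0383) in the authors' deposited table, and whether the counting used strand is not given in the sources used here, so its value is uncertain. ST3GAL3 was called in no knockout but was lower in the double than in the ANKRD52 knockout (-1.20, SE 0.31, approximate adjusted p = 0.000635).

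The remaining called sialyltransferase genes act on GalNAc. ST6GALNAC2 (0.73, adjusted p = 0.00421) and ST6GALNAC5 (0.58, adjusted p = 0.0264) rose in the double knockout in the authors' deposited table, and ST6GALNAC4 (-0.41, adjusted p = 0.00636) and ST6GALNAC6 (-0.23, adjusted p = 0.0369) fell in the same authors' deposited table. ST6GAL1, which caps N-glycans, and ST6GALNAC3 were called nowhere. ST6GAL1 had 56.5 CPM in the double knockout, 41.9 CPM in the ANKRD52 knockout, 35.0 CPM in the AGO2 knockout and 50.7 CPM in the parental line.

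Of the 7 fucosyltransferase genes, 4 rose and 1 fell in the double knockout, and 2 fell in the ANKRD52 knockout. FUT3, the Lewis enzyme, had 2.90 CPM in the double knockout, 0.189 CPM in the ANKRD52 knockout, 0.421 CPM in the AGO2 knockout and 0.839 CPM in the parental line. Its order over the groups was that of GALNT3. In the authors' deposited tables FUT3 rose by 1.79 in the double knockout (SE 0.55, adjusted p = 0.00396) and fell by 2.15 in the ANKRD52 knockout (SE 0.62, adjusted p = 0.00799). FUT3 is nearly identical to its neighbours FUT5 and FUT6, so reads may have been divided between them and its values are uncertain. FUT1, which makes the H antigen, had 23.2 CPM in the double knockout, 11.5 CPM in the ANKRD52 knockout, 13.7 CPM in the AGO2 knockout and 16.3 CPM in the parental line. FUT1 rose by 0.51 in the double knockout (adjusted p = 0.00408) and fell by 0.51 in the ANKRD52 knockout (adjusted p = 0.0151), by the authors' deposited tables. FUT2, the secretor enzyme that makes the same antigen in epithelia, had 6.77, 6.82 and 7.08 CPM in the double, ANKRD52 and AGO2 knockouts and 6.42 CPM in the parental line, and was not called.

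FUT8, the enzyme of core fucosylation, rose by 0.65 in the double knockout (adjusted p = 0.000144) in the authors' deposited table. FUT10 rose by 0.84 (adjusted p = 9.98e-14) and FUT11, listed in RefSeq as POFUT4, fell by 0.47 (adjusted p = 0.000372) in that comparison of the authors' deposited tables. FUT10 stood at 50.4 CPM in the double knockout and between 27.9 and 28.3 CPM in the other groups. FUT4, which makes Lewis X structures, was called nowhere.

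Since all 3 knockouts touch microRNA silencing, the members were searched for matches to the seeds of 8 microRNA families in their longest 3′ UTR (GENCODE 29, GRCh38). A seed, bases 2 to 8 of a microRNA, pairs with its complement in a target message. Of the members 65 had a 3′ UTR of at least 50 bases, with a median length of 2058 bases, against 1413 bases over 11932 genes. The miR-200 family is known for its place in epithelial cells. Its miR-200b/200c seed match CAGTATT stood in 18 of 65 members (27.7%) and 19.7% of genes. Of the members that rose in the ANKRD52 knockout, 4 of the 7 with a UTR held it (57.1%), against 36.5% of all genes that rose. Of the 10 that fell 0 held it, against 9.39% of all genes that fell, and of 48 not called 14 held it (29.2%). The double knockout did not show this order: the match stood in 7 of 26 members that rose (26.9%, against 25.6% of all genes that rose), 1 of 10 that fell and 10 of 29 not called (34.5%). UTR length moved with the calls of the ANKRD52 knockout. Its median was 2761 bases in members that rose there and 1090 bases in those that fell, against 2316.5 and 840 bases over all genes so called. The part of UTR length in these counts was not tested. In the ANKRD52 knockout the median log2 fold change was 0.21 in members with the match and -0.04 in members without, against 0.09 and -0.01 over all genes.

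The mature sequence of miR-200c (RefSeq, GRCh38.p14) is shown with its seed in capitals, with the matched windows of the 4 members that rose, 5′ to 3′, their seed match in capitals.
hsa-miR-200c-3p: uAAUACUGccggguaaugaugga
GALNT10: ggccctaagagtgttCAGTATTg
GCNT2: tgacccctctctcccCAGTATTa
ST3GAL2: tgcaattatgccaaaCAGTATTg
ST3GAL5: gaaatgaaatcttccCAGTATTa
The matches begin at base 610 of the UTR in GALNT10, 830 in GCNT2, 1694 in ST3GAL2 and 879 in ST3GAL5. In the double knockout GCNT2 and ST3GAL2 were also higher than in the parental line, ST3GAL5 was lower, and GALNT10 stood at -0.09 in the authors' deposited table (adjusted p = 0.696). None of the 4 was called in the AGO2 knockout. Among the other 7 families, matches to miR-141/200a stood in 30.8% of members and 21.8% of all genes, to let-7 in 18.5% and 11.4%, to miR-21 in 13.8% and 9.96%, and to miR-30 in 21.5% and 18.5%. For miR-17 and for miR-15/16 the share was 27.7% of members and 25.8% of genes, and for miR-19 it was 13.8% of members and 16.1% of genes. Of the 10 members that fell in the ANKRD52 knockout 0 held a let-7 match as well, against 6.54% of all genes that fell. It stood in 1 of the 7 that rose, against 15.9% of all genes that rose, and in 11 of 48 not called (22.9%). A miR-17 match stood in 4 of the 10 that fell, against 16.9% of all genes that fell. It stood in 3 of the 7 that rose, against 37.9% of all genes that rose. For miR-15/16 these counts were 4 of 10, against 21.9%, and 2 of 7, against 34.7%. A match of these letters is a description and does not show that the microRNA acts there.

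Other genes of the glycosylation pathway were read from lists, whose counts stand against the 43.0%, 13.7% and 6.10% of all genes called in the double, ANKRD52 and AGO2 knockouts. The lists were not tested as sets. Among enzymes that make nucleotide sugars, the donors of these reactions, 3 of 22 rose and 3 fell in the double knockout, led by UGP2 (0.65, adjusted p = 0.00509) and GALK1 (-0.57, adjusted p = 0.00238) in the authors' deposited table. GFPT1, the entry enzyme of hexosamine synthesis, rose in all 3 knockouts, by 0.55, 0.34 and 0.38 in the double, ANKRD52 and AGO2 knockouts (adjusted p = 2.96e-05, 0.0348 and 0.0333) in the authors' deposited tables. In the ANKRD52 knockout GNE, the first enzyme of sialic acid synthesis, rose by 0.85 (adjusted p = 0.00597) and the fucokinase FUK fell by 0.56 (adjusted p = 0.00373), and in the AGO2 knockout the GDP-fucose enzyme TSTA3 fell by 0.58 (adjusted p = 0.00238) in the authors' deposited tables. Of 15 Golgi transporters of nucleotide sugars 5 rose and 1 fell in the double knockout, 3 rose in the ANKRD52 knockout and 1 rose in the AGO2 knockout. SLC35A5 (0.76, adjusted p = 3.28e-08) and the GDP-fucose transporter SLC35C1 (0.61, adjusted p = 3.5e-05) led the double knockout in the authors' deposited table. SLC35D1 rose by 0.67 in the ANKRD52 knockout and 0.69 in the AGO2 knockout (adjusted p = 1.17e-05 and 2.21e-05), and SLC35B4 by 0.43 in the ANKRD52 knockout (adjusted p = 0.0305), in the authors' deposited tables.

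Next came the genes that hold glycosyltransferases in the Golgi, where 22.9% of all genes rose and 20.1% fell in the double knockout. Of the 8 COG subunits, which tether the vesicles that return these enzymes, 4 fell and 2 rose in the double knockout, with COG1 at -0.50 (adjusted p = 1.13e-05) and COG4 at -0.39 (adjusted p = 0.000554) in the authors' deposited table, while edgeR called 0 in the other knockouts, where unadjusted p-values under 0.05 numbered 0 for ANKRD52 and 1 for AGO2. Of 18 golgins and stacking factors 9 rose and 0 fell in the double knockout, led by GOLIM4 (1.09, adjusted p = 4.35e-07) and GOLGB1 (0.74, adjusted p = 0.00113) in the authors' deposited table. GOLGA1 rose by 0.42 in the ANKRD52 knockout (adjusted p = 0.00189) and USO1 by 0.25 in the AGO2 knockout (adjusted p = 0.0332) in the authors' deposited tables, the one call of this list in each. Among 8 Golgi ion and pH genes 3 rose and 1 fell in the double knockout, a share near that of all genes, with TMEM165 at 0.37 (adjusted p = 0.0146) and SLC30A5 at -0.32 (adjusted p = 0.000798) in the authors' deposited table. ATP2C2, a calcium and manganese pump of the secretory pathway, fell by 2.37 in the ANKRD52 knockout (adjusted p = 0.000162) in the authors' deposited table. Its levels were 18.9 CPM in the double knockout, 3.52 CPM in the ANKRD52 knockout, 8.64 CPM in the AGO2 knockout and 18.2 CPM in the parental line, with the groups in the same order as for GALNT3.

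Enzymes that act on the same chains were called in the double knockout at shares near the 43.0% of all genes for N-glycan trimming (44.4%), glycosaminoglycan chains (40%) and exoglycosidases (37.5%). Of 9 genes of N-glycan trimming 2 rose and 2 fell in the double knockout, MAN1A1 by 2.03 (adjusted p = 1.12e-05) and the first glucosidase MOGS at -0.44 (adjusted p = 6.68e-05) in the authors' deposited table, and MAN1C1 rose by 0.83 in the ANKRD52 knockout (adjusted p = 0.0225) in the authors' deposited table. Among 20 glycosaminoglycan chain genes 5 rose and 3 fell in the double knockout. The heparan sulfate sulfotransferase HS3ST1 fell by 3.72 (adjusted p = 1.44e-29) and the epimerase GLCE rose by 2.51 (adjusted p = 8.13e-34) there in the authors' deposited table. In the ANKRD52 knockout 2 of these 20 rose and 1 fell, EXTL3 at -0.37 (adjusted p = 0.0157) and CSGALNACT2 at 0.34 (adjusted p = 0.0323), and in the AGO2 knockout NDST1 fell by 0.29 (adjusted p = 0.0143) in the authors' deposited tables. Of 13 carbohydrate sulfotransferases 6 rose and 1 fell in the double knockout, with CHST11 at 1.39 (adjusted p = 0.00208) and CHST6 at 1.21 (adjusted p = 1.26e-10), and 2 rose in the ANKRD52 knockout, CHST3 at 0.47 (adjusted p = 0.00147) and CHST15 at 0.36 (adjusted p = 0.0268), in the authors' deposited tables. Of 8 exoglycosidases 3 rose in the double knockout, led by the fucosidase FUCA1 (1.02, adjusted p = 2.18e-10) and the galactosidase GLA (0.40, adjusted p = 0.00653) in the authors' deposited table, and edgeR called 0 elsewhere, with 0 at an unadjusted p under 0.05.

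Carriers and readers of the chains were followed too. Of 9 mucins and galectins 5 rose and 1 fell in the double knockout. MUC13 had 26.0 CPM in the double knockout, 0.050 CPM in the ANKRD52 knockout, 0.451 CPM in the AGO2 knockout and 0.0554 CPM in the parental line, the last close to the level of 3 reads (log2 fold change 8.87 in the double knockout, adjusted p = 2.64e-08, in the authors' deposited table). MUC16 had 4.85 CPM in the double knockout and at most 0.121 CPM in any other group (log2 fold change 5.78, adjusted p = 2.35e-07, in the authors' deposited table). The galectin LGALS8 rose by 0.55 in the ANKRD52 knockout (adjusted p = 0.00331) in the authors' deposited table. Among 19 other glycosyltransferases, for the most part acting on proteins, 3 rose and 0 fell in the double knockout. The list also holds the member B3GALTL and the ceramide glucosyltransferase UGCG, which was not called there. LFNG, a modifier of Notch, stood at 1.03 (adjusted p = 0.00152) and GXYLT1 at 0.44 (adjusted p = 0.00222) there in the authors' deposited table. XXYLT1 (0.52, adjusted p = 0.0156) and EOGT (0.37, adjusted p = 0.0392) rose in the ANKRD52 knockout and EOGT (0.51, adjusted p = 0.00655) in the AGO2 knockout, per the authors' deposited tables.

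**Figure D4:**
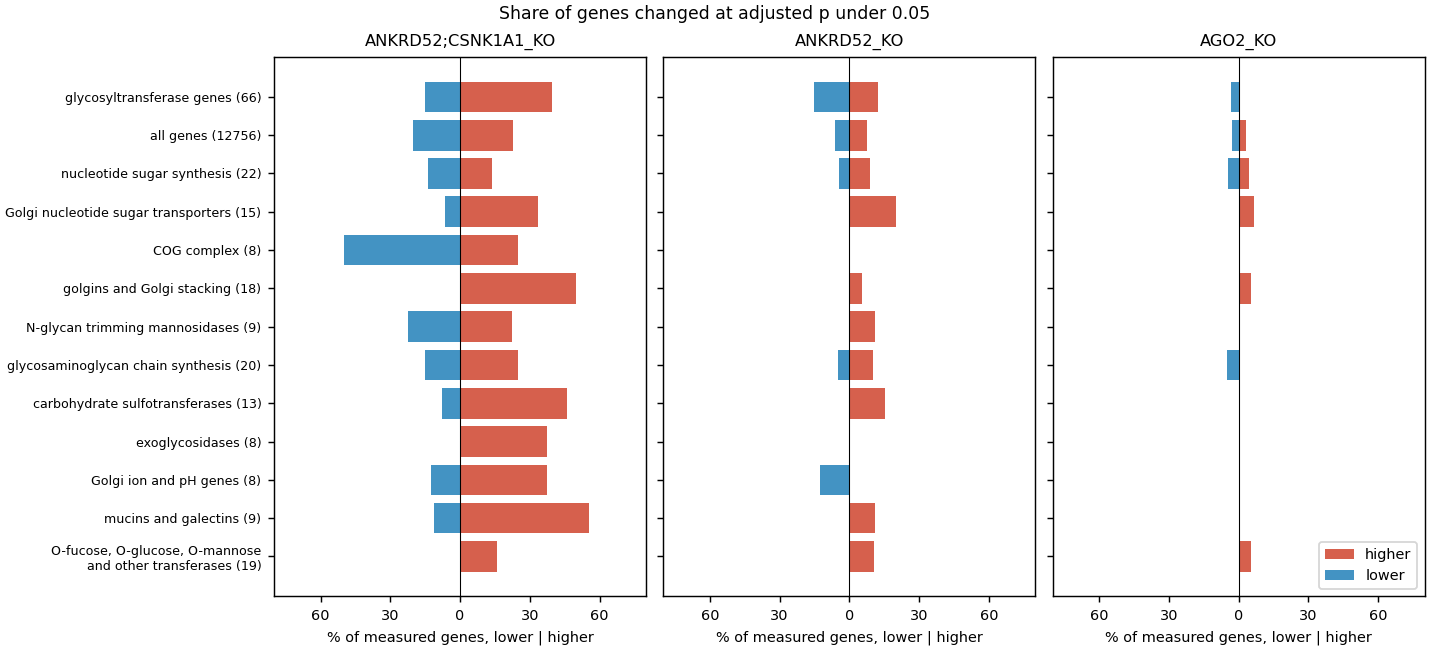
Percentage of measured genes (x axis, fallen to the left of 0 and risen to the right) at an adjusted p under 0.05 in the 3 knockouts for the glycosyltransferase genes, all genes and 11 other lists of the pathway, with the number measured in brackets. In the double knockout 9 of 18 golgins and stacking factors rose and 4 of 8 COG subunits fell, and the AGO2 panel holds at most 1 gene of a list in each direction beside the 2 glycosyltransferase genes that fell.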

How the data were processed

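PolyA RNA of 12 HCT116 libraries was compared in 4 groups of 3. The tools listed by the submitters' processing notes are edgeR 3.8.6, featureCounts 1.4.6 and TopHat2 2.0.12, with the build hg19 and no role for any; per the labels' protocols a stranded kit and 75 sequencing cycles were used. The files are 3 tables, per the file headers of edgeR's kind, in which the authors give each gene its mean log2 CPM and its log2 fold change. The likelihood ratio, a score without fixed range, and the raw and adjusted p-value beside it are also as the authors deposited them. They list the same 12756 genes. As checked, the deposited p-values are chi-square tails with 1 degree of freedom and the adjusted ones Benjamini-Hochberg values over all genes. Per-library counts were not used here, so the count test that the design provided for gave way to these tables, no normalization was redone, and the depth is unknown.

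To rebuild an SE, the size of the log2 fold change was divided by the root of its likelihood ratio. The difference of the double and the ANKRD52 knockout had the mean of both squared SEs as its variance, with a two-sided normal test adjusted over 12753 genes. The calculation was run on simulated normal values whose spread was known and equal in all groups. It therefore cannot show how well errors rebuilt from count data hold. The level of 3 reads assumes a prior count of 0.125. It rests on 2 genes with a log2 fold change of 0 in both the AGO2 and the ANKRD52 knockout, taken to have no reads there. Genes were matched to GENCODE 29 and RefSeq by symbol or synonym. Named were all members called anywhere, the uncalled by group, and the 2 called genes with the largest change per list and comparison. Members were found by a rule on symbols that reads no value, but that rule, the lists, the microRNA families and the motifs were chosen with earlier results of these data known. Alternatives were an adjusted p under 0.01, a mean log2 CPM of at least 1, an F distribution, an absolute log2 fold change of at least 0.5, centring, other errors of the difference, and the mean in place of the median. Scripts ran in Python 3.11.15 with pandas 2.3.3, scipy 1.17.1, numpy 2.4.6 and, for plots, matplotlib 3.10.9.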

Additional observations from a re-analysis of the deposited data

How the results depend on the processing

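The counts of called glycosyltransferase genes in the double knockout (26 to 36) and between the double and the ANKRD52 knockout (29 to 39) stayed within 1.5 times their reported values of 36 and 39 under every alternative run, among them the median error of the 3 comparisons for the difference (39), which was chosen after seeing the data. In the ANKRD52 knockout 7 of 18 remained at an adjusted p under 0.01, 11 with an absolute log2 fold change of at least 0.5, and 0 under the F distribution (1 and 8 degrees of freedom). In the AGO2 knockout 1 of 2 remained with an absolute log2 fold change of at least 0.5, and 0 under the F distribution. At an unadjusted p under 0.05 that distribution left 24 members in the ANKRD52 knockout and 7 in the AGO2 knockout, against 26 and 13 by edgeR. Over all 12756 genes edgeR had 3366 and 2735 at that level, while counts under the F distribution were made for the members only. The mean log2 fold change of the members in the double knockout was 0.42, against a median of 0.24 (0.13 and 0.01 over all genes). Without FUT3, GCNT2, GCNT3 and MGAT3, which a filter on low levels removes, 32 genes were called in that knockout. No paired analysis was possible because the tables hold no per-library values, and leaving out single replicates was not run for the same reason. Precision is limited by 3 libraries a group, and depth could not be judged.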
